A study of Homo sapiens with 4 samples.

Results

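The 45 genes described here are targets of the transcription factor NRF2 and enzymes of thiol redox chemistry. They were chosen by name with earlier results of these data known, so counts over them are descriptions. The list holds the NRF2 sensor gene KEAP1 and the genes of glutathione, thioredoxin, peroxiredoxin, NADPH supply and detoxification. Of these, 44 had a probe set annotated with their symbol alone, out of 18417 genes with such a probe set in the table; PRDX5 is not analysed here. The brightest such probe set stood for each gene, and only AKR1C1 and GPX1 had a second one.

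Transcripts were measured in MiaPaCa2, a human pancreatic carcinoma cell line, on Human Gene 1.0 ST arrays, which summarise many short probes per transcript. The cells had been given LY101-4B, presented as an inhibitor of the E2F cell cycle factors, at 50 µM for 24 h (2 arrays) or vehicle for 24 h (2 arrays), and the vehicle itself is not named in the labels. A protocol entry of the same samples gives LY101-4D at 25 µM instead. Titles, agent labels and the series design name LY101-4B with the higher dose, and these were followed. The design covers 1 cell line, 1 dose and 1 time, with the 2 samples of a group described as biological replicates. No genetic change separates the groups. All values below are log2 units after RMA, a normalisation that aligns the arrays to one distribution, so a change is relative to the bulk of probe sets. A difference is LY101-4B minus vehicle, and a gene is said to have risen or fallen where limma's p adjusted over 21214 probe sets was under 0.05. In the RNA of a whole culture, fewer cells with a transcript and less transcript per cell cannot be told apart.

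NRF2 is a transcription factor that KEAP1 normally holds in the cytoplasm and passes to a CUL3 ubiquitin ligase for destruction. When electrophiles or oxidants modify cysteines of KEAP1, or when the autophagy receptor SQSTM1 binds it, NRF2 escapes, pairs with a small MAF protein in the nucleus and binds antioxidant response elements near its targets. Those targets make and reduce glutathione and thioredoxin, supply NADPH as the electron source, reduce quinones and carbonyls, and conjugate and export foreign compounds. Many pancreatic cancers are known to rely on this pathway to limit oxidants.

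The core of the antioxidant response element, TGACNNNGC, was searched on both strands of RefSeq promoter windows of build GRCh38.p14, each from 250 bases before a transcript start to 50 after it. Windows were held for 36 of the 45 genes, and 13 of the 36 (36.1%) had the core in at least 1 window, against 16.1% of all 27305 symbols. Counted by window, 29.2% of 48 windows of these genes held it, against 13.3% of all 35116. Genes of the list were chosen in part as NRF2 targets, so the larger share is a property of the list. The core was present for 5 of the 14 genes with a window that rose, 2 of the 3 that fell and 6 of the 18 that did not pass. A match is a run of letters and does not show that the site is used. A gene without a match may still hold a core outside the windows searched.

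The stretches below all lie wholly before the transcript start. They are shown because 3 pairs of genes share the same core letters there. PGD is added as an example of a gene that rose with a core of its own. EPHX1 also rose with a core of its own before the start, and its stretch is not shown. Each runs 5′ to 3′ on the strand that holds the core, which is in capitals.
ME1, chr6:83431160-83431208, minus strand: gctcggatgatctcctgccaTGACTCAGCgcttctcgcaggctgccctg
GSTP1, chr11:67583726-67583774, plus strand: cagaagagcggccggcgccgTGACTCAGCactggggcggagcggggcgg
TXNRD1, chr12:104215660-104215708, plus strand: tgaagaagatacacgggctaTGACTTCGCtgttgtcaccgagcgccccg
GSTM1, chr1:109687632-109687680, plus strand: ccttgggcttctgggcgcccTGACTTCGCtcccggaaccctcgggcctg
GCLM, chr1:93909436-93909484, plus strand: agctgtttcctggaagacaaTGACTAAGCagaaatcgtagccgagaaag
KEAP1, chr19:10502774-10502822, plus strand: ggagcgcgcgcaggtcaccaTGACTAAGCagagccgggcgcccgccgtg
PGD, chr1:10398843-10398891, minus strand: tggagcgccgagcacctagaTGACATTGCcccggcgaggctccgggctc
ME1 and GSTP1 shared the same 9 letters of core, and so did TXNRD1 and GSTM1, and GCLM and KEAP1. In the first pair ME1 rose 3.14-fold while GSTP1 differed by -0.02 log2 units. In the second, TXNRD1 rose 1.64-fold and GSTM1 fell 1.41-fold. In the third, neither GCLM (0.10) nor KEAP1 (-0.16) passed. TXNRD1 and MGST1 shared another core, and both rose (0.71 and 0.46 log2 units). That of MGST1 lies after the transcript start, so the pair is not shown. ME1 and KEAP1 held further cores as well.

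Across the list, 16 of the 44 measured genes rose (36.4%), 3 fell (6.82%) and 25 did not pass, with a median difference of 0.11 log2 units. Over all 21214 probe sets 9.10% rose and 10.5% fell, 19.6% together, and the median was 0.01. The rises ranged from 1.29-fold to 8.77-fold, and 3 of them (NMRAL2P, GCLC and ME1) were at least 2-fold, a size that 1.59% of all probe sets reached. The groups did not overlap for 39 of the 44 genes, 20 of them genes that did not pass; 58.0% of all probe sets had non-overlapping groups. Without vehicle replicate 1 the counts were 8 higher and 0 lower, without vehicle replicate 2 they were 7 and 0, without LY101-4B replicate 1 they were 11 and 3, and without LY101-4B replicate 2 they were 13 and 2. The 7 rises that passed in every fit that included them were those of NMRAL2P, GCLC, ME1, SRXN1, UGDH, TXNRD1 and AKR1C1. Fits with 3 arrays estimate the spread from less data, so a lost call can arise without any change in the difference.

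**Figure D1:**
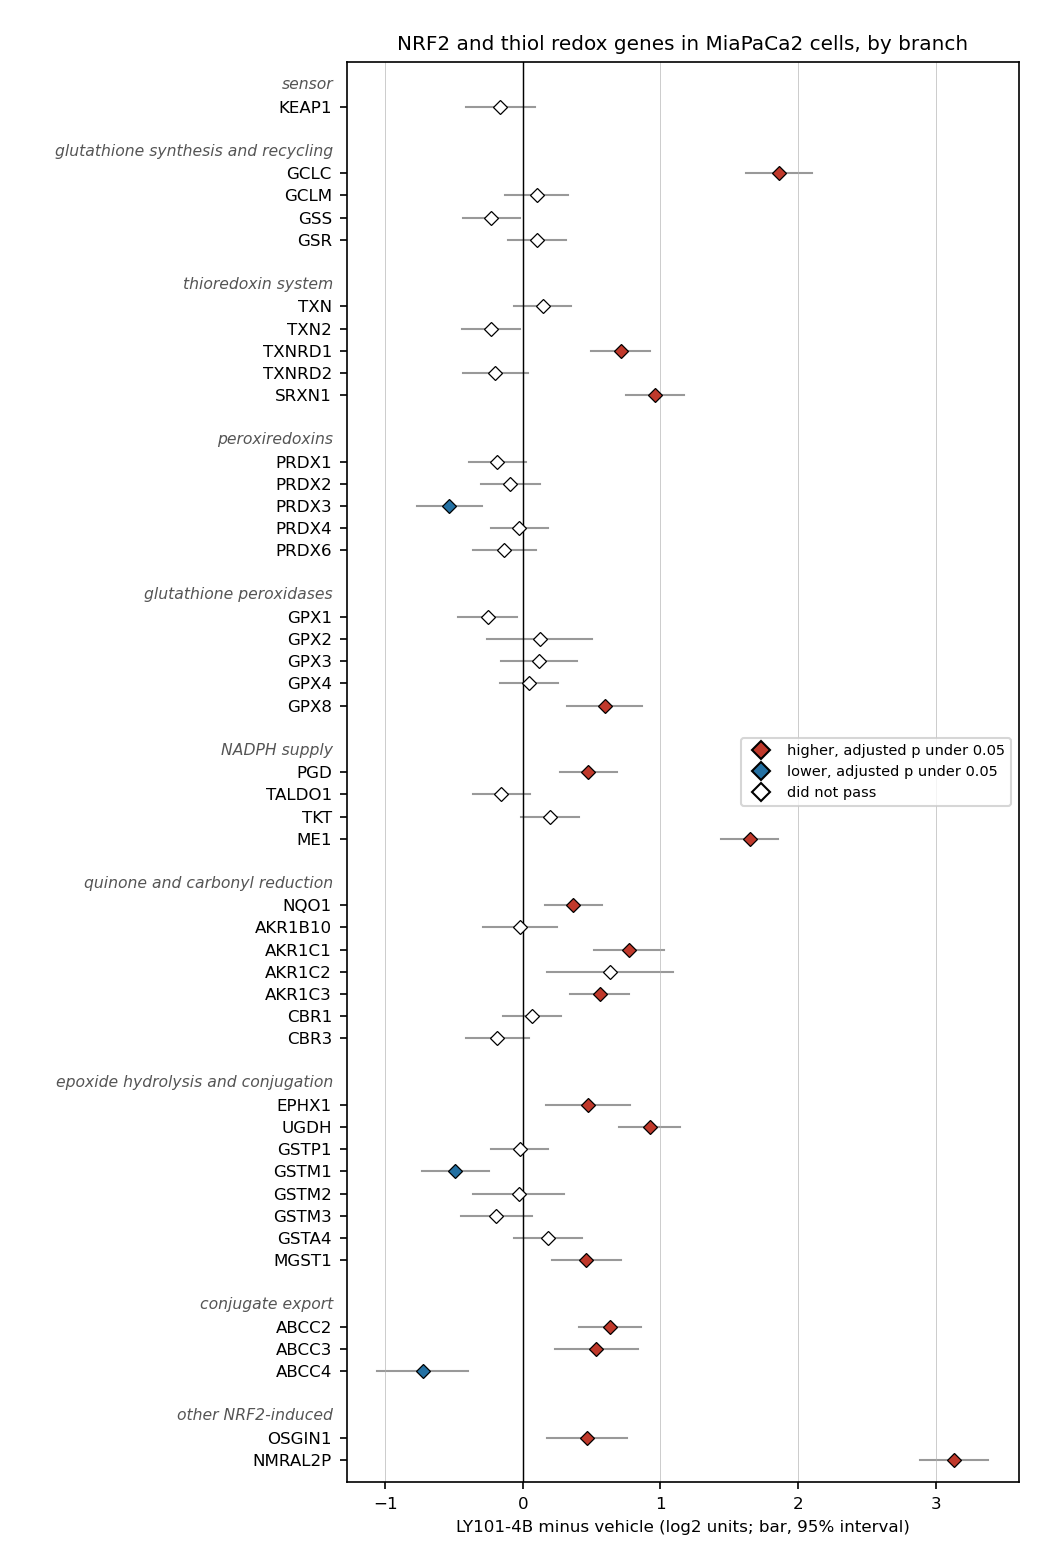
Differences between LY101-4B and vehicle (log2 units; bars, unadjusted 95% intervals of the limma fit, 2 arrays a group) for the 44 measured genes, grouped by redox branch; red and blue diamonds passed the adjusted threshold, white ones did not. The 16 rises are spread over 8 of the 10 branches, and NMRAL2P (3.13), GCLC (1.86) and ME1 (1.65) stand to the right of all other genes.

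**Figure D2:**
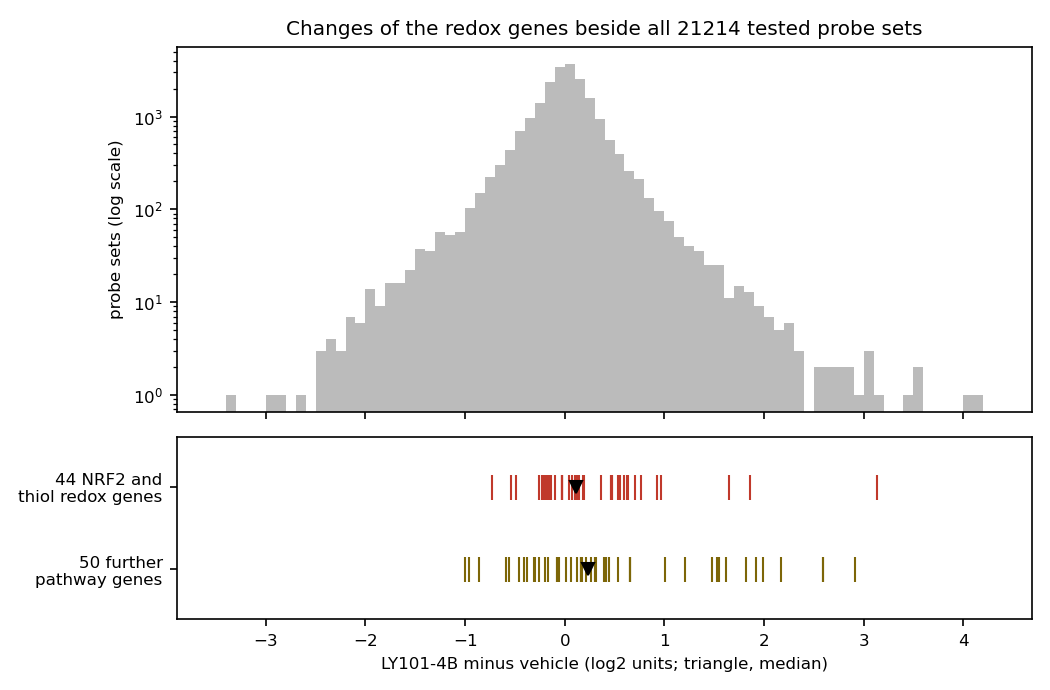
Upper panel, the number of probe sets (log scale) at each difference between LY101-4B and vehicle (log2 units) for all 21214 tested; lower panel, 1 line for each of the 44 redox genes and the 50 further pathway genes, with black triangles at the medians of 0.11 and 0.24. Most of the 44 genes lie near 0, and a few reach the right-hand tail.

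The sensor gene KEAP1 read 8.97 and 9.17 on the LY101-4B arrays, against 9.26 and 9.21 on the vehicle arrays. Its difference of -0.16 ± 0.10 log2 units (SE; 95% interval -0.42 to 0.09) did not pass (limma adjusted p 0.343). NFE2L2, which encodes NRF2, rose 1.36-fold to 9.93 and 10.09 with LY101-4B, against 9.57 and 9.56 with vehicle (limma adjusted p 0.0265). That call was lost when vehicle replicate 1 (adjusted p 0.155), the other vehicle array (0.158) or LY101-4B replicate 2 (0.0557) was left out, though the groups did not overlap.

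Glutathione is built in a pair of steps: the ligase made of the catalytic subunit GCLC and the modifier subunit GCLM joins glutamate to cysteine, and GSS adds glycine. GCLC read 10.18 and 10.31 with LY101-4B, against 8.33 and 8.44 with vehicle. The lowest treated array lay well above the highest vehicle array, and the rise was 3.63-fold (1.86 ± 0.10 log2 units, SE; limma adjusted p 0.000601). GCLM, whose product makes GCLC more efficient, read 10.55 and 10.69 with LY101-4B, against 10.51 and 10.52 with vehicle. The arrays were separated by little, and the difference of 0.10 (95% interval -0.13 to 0.33; adjusted p 0.526) did not pass. The interval of GCLM ended below that of GCLC, which ran from 1.62 to 2.10; the difference between the 2 changes was not tested itself. GSS read 9.13 and 9.17 with LY101-4B against 9.39 and 9.37 in vehicle, a difference of -0.23 (adjusted p 0.124). GSR, the reductase that returns oxidised glutathione to its thiol form with electrons from NADPH, read 10.65 and 10.63 with LY101-4B and 10.51 and 10.57 with vehicle, a difference of 0.10 (adjusted p 0.491). Of the 4 genes, only GCLC passed in the reported fit. GSS passed as lower with the brighter 50% of probe sets (limma adjusted p 0.0415) and with an intensity trend (0.0432).

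Thioredoxins are small proteins with a reactive pair of cysteines that reduce disulfides in other proteins, and thioredoxin reductases, which are selenoproteins, recharge them with NADPH. The cytosolic reductase gene TXNRD1 read 12.12 and 12.16 with LY101-4B, against 11.40 and 11.46 with vehicle, a rise of 1.64-fold (limma adjusted p 0.00442). SRXN1, sulfiredoxin, which rescues peroxiredoxins that peroxide has overoxidised, read 10.51 and 10.56 with LY101-4B, against 9.56 and 9.58 with vehicle. It rose 1.95-fold (adjusted p 0.00188), and the replicate arrays of each group lay close together for both genes. TXN, the cytosolic thioredoxin, read 12.01 and 12.03 with LY101-4B against 11.90 and 11.85 in vehicle, and its difference of 0.14 did not pass (adjusted p 0.320). The mitochondrial partners lay on the other side of 0 and did not pass. TXN2 differed by -0.23 (95% interval -0.44 to -0.02; adjusted p 0.127), with 7.09 and 7.05 in treated cells and 7.27 and 7.32 in vehicle. TXNRD2 differed by -0.20 (interval -0.44 to 0.03; adjusted p 0.213), with 7.32 and 7.34 in treated cells and 7.45 and 7.61 in vehicle.

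Peroxiredoxins are abundant thiol peroxidases that thioredoxin keeps reduced. Of the 5 measured genes 1 fell and 0 rose, and all 5 differences were below 0, although that of PRDX4 turned to 0.08 under cyclic loess scaling. PRDX3, the mitochondrial member, read 11.28 and 11.41 with LY101-4B, against 11.83 and 11.93 with vehicle. It fell 1.45-fold (limma adjusted p 0.0151), and missed the threshold without vehicle replicate 1 (0.0758) or vehicle replicate 2 (0.118). PRDX1, a cytosolic NRF2 target, read 12.23 and 12.19 with LY101-4B and 12.39 and 12.40 with vehicle, a difference of -0.19 (95% interval -0.40 to 0.02; adjusted p 0.196). The other cytosolic genes PRDX2 (-0.09) and PRDX6 (-0.13), and PRDX4 of the endoplasmic reticulum (-0.03), did not pass either. None of the 3 had an interval reaching beyond -0.37 or 0.18.

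Glutathione peroxidases remove peroxides at the expense of glutathione. GPX8, which sits in the membrane of the endoplasmic reticulum and, unlike its selenium-containing relatives, has cysteine in its active site, was the 1 gene of 5 that rose. Its arrays read 9.16 and 9.35 with LY101-4B, against 8.58 and 8.74 with vehicle, a 1.51-fold rise (limma adjusted p 0.0171) that was lost without vehicle replicate 1 (0.118) or vehicle replicate 2 (0.0554). GPX4, which reduces lipid hydroperoxides in membranes and so holds back ferroptosis, read 11.33 and 11.38 with LY101-4B and 11.33 and 11.29 with vehicle. Its difference of 0.05 had an interval from -0.17 to 0.26 (adjusted p 0.771), and was -0.01 with arrays centred on their medians. GPX1, the cytosolic enzyme, differed by -0.26 (adjusted p 0.102), while its dimmer probe set gave 0.09, so the direction of GPX1 depends on the probe set. GPX2 (0.12), the gastrointestinal form, and GPX3 (0.12), the secreted form, had overlapping groups.

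NADPH, the electron donor of both thiol systems, comes from malic enzyme and from the pentose phosphate pathway. ME1, the cytosolic malic enzyme, read 10.65 and 10.68 with LY101-4B, against 9.02 and 9.01 with vehicle. Replicates agreed to within 0.03 log2 units, and the rise was 3.14-fold (1.65 ± 0.08, SE; limma adjusted p 0.000577). PGD, the second NADPH-producing dehydrogenase of the pentose phosphate pathway, read 12.01 and 12.01 with LY101-4B, against 11.56 and 11.52 with vehicle. Its 1.39-fold rise (adjusted p 0.0148) missed the threshold without vehicle replicate 1 (0.104) or vehicle replicate 2 (0.127). The enzymes that return pentoses to glycolysis did not pass: TKT, transketolase, differed by 0.20 (10.43 and 10.48 with LY101-4B against 10.26 and 10.26 in vehicle; adjusted p 0.182). TALDO1, transaldolase, differed by -0.16 (10.84 and 10.86 with LY101-4B against 11.00 and 11.01 in vehicle; adjusted p 0.270).

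**Figure D3:**
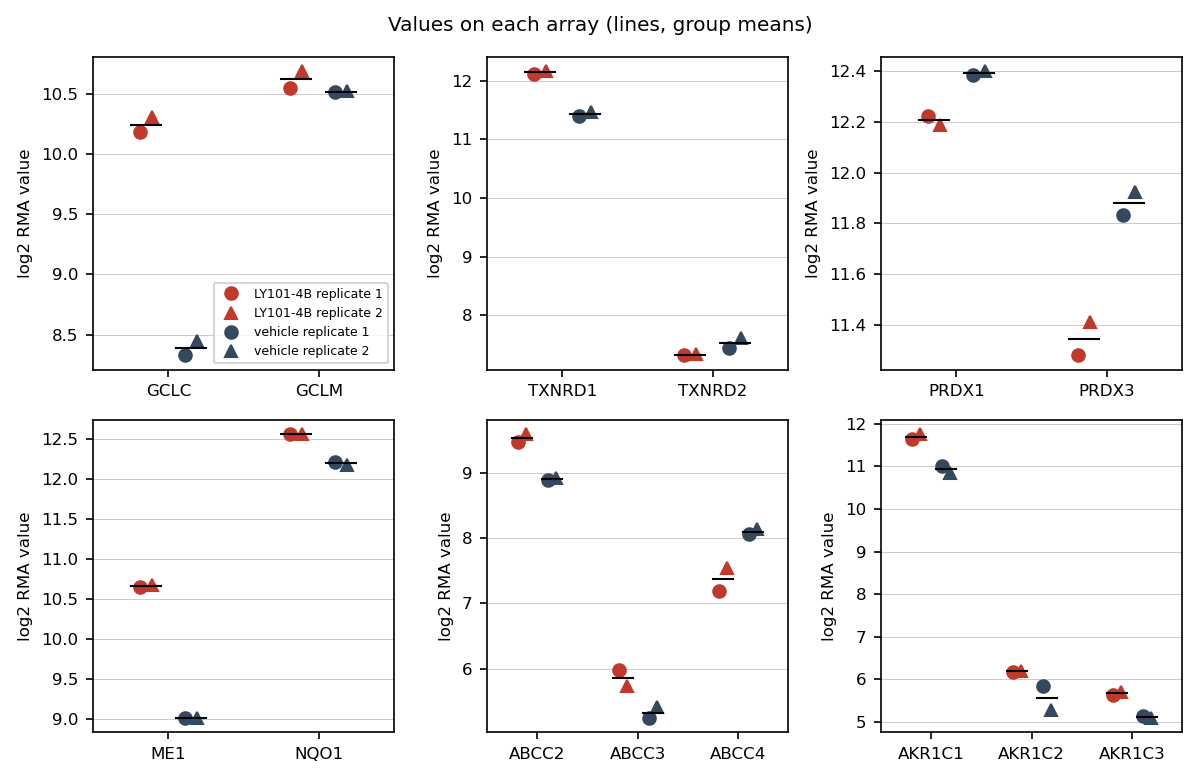
Log2 RMA value on each LY101-4B array (red) and vehicle array (dark) for paired subunits, compartments or family members; horizontal lines are group means of 2 arrays, and heights of different genes are not comparable because their probes differ. GCLC, TXNRD1, ME1, NQO1, ABCC2, ABCC3, AKR1C1 and AKR1C3 lie higher with LY101-4B, PRDX3 and ABCC4 lower, and GCLM, TXNRD2, PRDX1 and AKR1C2 did not pass.

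Among enzymes that reduce quinones and carbonyls, 3 of 7 rose and 0 fell. NQO1, the quinone reductase most often read as an NRF2 reporter, had 12.56 and 12.56 with LY101-4B, against 12.21 and 12.17 with vehicle. The rise was 1.29-fold, the smallest of the 16 (0.37 ± 0.08, SE; limma adjusted p 0.0328). Without any 1 of the 4 arrays it missed the threshold (adjusted p from 0.0582 to 0.232). The aldo-keto reductases AKR1C1, AKR1C2 and AKR1C3 convert steroids and reactive carbonyls. Their genes lie side by side on chromosome 10 and are related copies, so that probes may read more than 1 of them. AKR1C1 read 11.63 and 11.76 with LY101-4B and 11.00 and 10.85 with vehicle, a 1.71-fold rise (adjusted p 0.00575), but its dimmer probe set gave 0.40 and did not pass (adjusted p 0.116). AKR1C3 read 5.64 and 5.69 with LY101-4B and 5.13 and 5.08 with vehicle, a 1.47-fold rise (adjusted p 0.00934) that was lost without vehicle replicate 1 (0.0677) or vehicle replicate 2 (0.0843). The probe sets of AKR1C3 and AKR1C2 lay outside the brighter 50%, and without detection calls their distance to background is not known. AKR1C2 read 6.17 and 6.20 with LY101-4B against 5.84 and 5.27 in vehicle. Its vehicle arrays disagreed by more than those of any other of the 44 genes, and its difference of 0.63 ± 0.19 (adjusted p 0.0689) did not pass. It was 0.91 without vehicle replicate 1 (adjusted p 0.0173) and 0.35 without vehicle replicate 2 (0.229). AKR1B10, another NRF2-responsive reductase, lay between 3.64 and 3.83 on all 4 arrays. Its groups overlapped, and its difference was -0.02. The carbonyl reductase genes CBR1 (0.07) and CBR3 (-0.19) did not pass.

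Enzymes that open epoxides and attach glucuronate or glutathione moved both ways, with 3 of 8 genes higher and 1 lower. UGDH, which makes the UDP-glucuronate used for conjugation, read 10.29 and 10.39 with LY101-4B, against 9.40 and 9.44 with vehicle, a 1.89-fold rise (limma adjusted p 0.00233). MGST1, the membrane-bound glutathione transferase, read 9.13 and 8.94 with LY101-4B against 8.57 and 8.57 in vehicle. It rose 1.38-fold (adjusted p 0.0281), and the call was lost without either vehicle array (0.155 without replicate 1, 0.152 without replicate 2) and without LY101-4B replicate 1 (0.0665). EPHX1, microsomal epoxide hydrolase, read 7.79 and 7.70 with LY101-4B against 7.42 and 7.13 in vehicle, a 1.39-fold rise. With an adjusted p of 0.0492 it stood at the threshold, and missed it without any 1 array (differences of 0.32 to 0.62). The threshold was also missed with median centring (0.0621), under cyclic loess (0.0570), with a robust prior (0.0520) and with all rows tested (0.124).

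Of the 5 cytosolic glutathione transferase genes 1 fell and 0 rose. GSTM1 read 7.71 and 7.59 with LY101-4B and 8.20 and 8.08 with vehicle, a 1.41-fold fall (limma adjusted p 0.0212). The fall missed the threshold without either vehicle array (0.160 without replicate 1, 0.0829 without replicate 2) and without LY101-4B replicate 2 (0.0545). GSTM1, GSTM2 and GSTM3 are neighbouring related copies on chromosome 1, and some of their probes may be shared. GSTM2 (-0.03) had overlapping groups and GSTM3 (-0.19) did not pass. GSTP1, the main transferase of many carcinomas, read 11.48 and 11.44 with LY101-4B and 11.50 and 11.47 with vehicle. The groups overlapped, and the difference of -0.02 had an interval from -0.23 to 0.18; under cyclic loess it was 0.09. GSTA4, which acts on the lipid peroxidation product hydroxynonenal, differed by 0.18 (adjusted p 0.283).

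ABCC2, ABCC3 and ABCC4 encode pumps that carry glutathione and glucuronate conjugates out of cells; all 3 passed, but not in the same direction. ABCC1, a related pump on the second list and mentioned here with its value known, differed by -0.20 and did not pass (limma adjusted p 0.215). ABCC2 read 9.47 and 9.59 with LY101-4B, against 8.89 and 8.91 with vehicle, a 1.55-fold rise (limma adjusted p 0.00766). ABCC3 read 5.99 and 5.74 with LY101-4B against 5.25 and 5.41 in vehicle, a 1.45-fold rise (adjusted p 0.0321). Its probe set lay outside the brighter 50%, and without detection calls its distance to background is not known. ABCC4, which also exports cyclic nucleotides, read 7.20 and 7.54 with LY101-4B and 8.06 and 8.14 with vehicle, a 1.66-fold fall (adjusted p 0.0161) and the largest fall of the 44 genes. All 3 calls were lost without vehicle replicate 1 (adjusted p 0.0628 for ABCC2, 0.185 for ABCC3 and 0.0600 for ABCC4) or without vehicle replicate 2 (0.0544, 0.0819 and 0.0813). The call of ABCC3 was also lost without LY101-4B replicate 1 (0.0896).

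NMRAL2P, a pseudogene whose RNA is known as an NRF2-induced coactivator transcript, changed most. It read 7.62 and 7.81 with LY101-4B, against 4.58 and 4.59 with vehicle, which is 8.77-fold (3.13 ± 0.10, SE; limma adjusted p 0.000385). No detection calls were used, so whether its vehicle signal was above background is not known, and the fold is uncertain for that reason. OSGIN1, an oxidative stress-induced growth inhibitor, read 7.55 and 7.75 with LY101-4B, against 7.29 and 7.09 with vehicle. Its rise of 1.38-fold (adjusted p 0.0441) missed the threshold without any 1 array (differences of 0.36 to 0.56). The threshold was also missed with median centring (0.0572), with all rows tested (0.114) and with the replicate number as a block (0.0548).

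**Figure D4:**
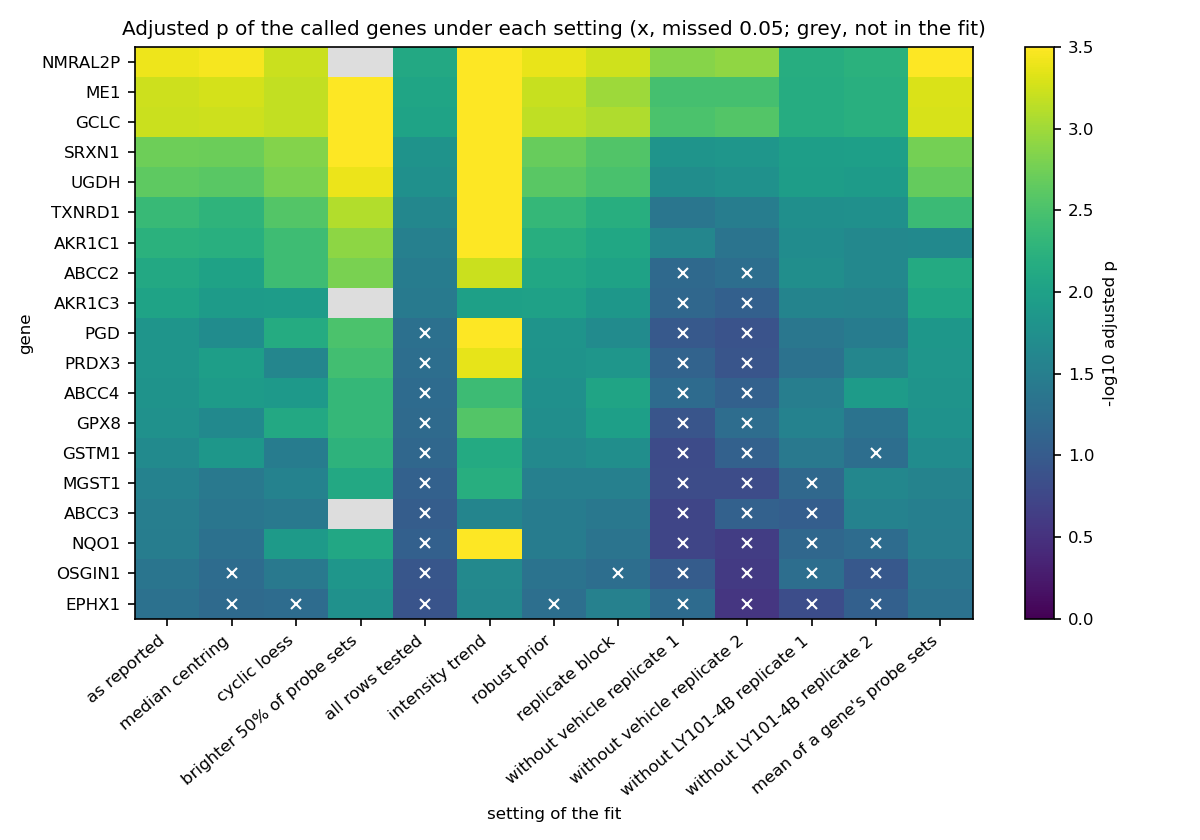
Adjusted p (colour, -log10 scale) of the 19 genes called higher or lower, under the reported fit and each alternative; white crosses mark an adjusted p that missed 0.05, and grey cells a probe set that was not in the fit. The top 7 rows have no cross, and the crosses gather where 1 vehicle array was left out or all rows of the table were tested.

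A second list, of 50 measured genes, held the rest of the pathway: regulators of NRF2, cystine and glutathione turnover, other peroxide enzymes, other NADPH and pentose enzymes, and other NRF2 targets. Of these 21 rose (42%), 7 fell (14%) and 22 did not pass, with a median difference of 0.24 log2 units. The same background of 9.10% higher and 10.5% lower applies. This list too was chosen with earlier results of these data known, so its counts are descriptions.

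Among 9 regulators 5 rose and 2 fell. SQSTM1, the receptor that draws KEAP1 into autophagy, rose to 11.79 and 11.82 with LY101-4B, against 9.82 and 9.81 with vehicle, or 3.96-fold (limma adjusted p 0.00043). NFE2L1, the NRF2 relative that governs proteasome genes, rose 2.89-fold (adjusted p 0.000822), at 10.35 and 10.50 with LY101-4B against 8.90 and 8.90 in vehicle. MAFG and MAFF, which encode small MAF partners of NRF2 on DNA, rose as well; the small MAF gene MAFK is not analysed here. MAFG rose 2.00-fold (adjusted p 0.00212) and MAFF 1.57-fold (0.0248). The dimmer probe sets of MAFG gave 0.72, which passed (limma adjusted p 0.0039), and 0.24, which did not (0.213). MAFF missed the threshold without vehicle replicate 1 (0.116) or vehicle replicate 2 (0.0873). CUL3 (9.60 and 9.70 with LY101-4B against 10.18 and 10.30 in vehicle) and RBX1 (9.30 and 9.39 with LY101-4B against 9.91 and 9.91 in vehicle), the scaffold and the RING subunit of the ligase that KEAP1 serves, fell by 0.59 and 0.56 log2 units (adjusted p 0.0107 and 0.00926). Both were singled out after their values were seen, as the 2 regulators that fell. Without vehicle replicate 1 their adjusted p was 0.0536 and 0.0771, and without vehicle replicate 2 it was 0.0899 and 0.0741. BACH1, the repressor that competes with NRF2 for the same elements, differed by 0.31 (adjusted p 0.0586), and was also chosen with its value known.

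In the group of cystine and glutathione turnover 5 of 11 genes rose and 2 fell. CTH, which makes cysteine from cystathionine, read 10.16 and 10.23 with LY101-4B, against 7.62 and 7.58 with vehicle, a 6.04-fold rise (limma adjusted p 0.000395). SLC7A11 and SLC3A2, the light and heavy chains of the cystine-glutamate exchanger, rose by 2.92 and 1.21 log2 units (adjusted p 0.00043 and 0.00121). CHAC1, which breaks glutathione down, rose 3.08-fold, at 8.20 and 8.51 with LY101-4B against 6.84 and 6.62 in vehicle (adjusted p 0.00175). Its relative CHAC2 fell 1.95-fold and GGCT, another gene of the group, fell 1.82-fold (adjusted p 0.0102 and 0.00433). These 2 were picked out with their values known, as the genes of the group that fell.

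Of the other thiol and peroxide enzymes 4 of 12 rose and 1 fell. The sestrin gene SESN2 rose by 2.17 log2 units (limma adjusted p 0.000958), and TXNIP, which binds and blocks reduced thioredoxin, by 1.55 (adjusted p 0.000729; 12.57 and 12.68 with LY101-4B against 11.10 and 11.05 in vehicle). MSRB2, a mitochondrial methionine sulfoxide reductase, rose 1.33-fold, as did AIFM2, the ubiquinone reductase that restrains ferroptosis (adjusted p 0.0429 and 0.0307). Without vehicle replicate 1 their adjusted p was 0.207 and 0.146, and without vehicle replicate 2 it was 0.196 and 0.211. MSRB2 also missed the threshold without LY101-4B replicate 2 (0.0788) and with median centring (0.0608), and AIFM2 without LY101-4B replicate 1 (0.0798). SOD1, the cytosolic superoxide dismutase, was the 1 gene that fell, by 0.38 log2 units (adjusted p 0.0297), and was named for that after its value was seen. It missed the threshold without either vehicle array (0.208 without replicate 1, 0.181 without replicate 2), without LY101-4B replicate 1 (0.0698) and under cyclic loess (0.0690).

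The other NADPH and pentose enzymes split, with 2 of 7 higher and 2 lower. IDH1, the cytosolic NADPH-producing isocitrate dehydrogenase, read 11.84 and 11.98 with LY101-4B, against 10.44 and 10.42 with vehicle, a 2.79-fold rise (limma adjusted p 0.000865). MTHFD2 of mitochondrial folate metabolism rose 1.45-fold (adjusted p 0.0110; 0.0684 without vehicle replicate 1 and 0.101 without vehicle replicate 2). RPIA and RPE, the isomerase and epimerase that interconvert pentose phosphates, fell 2.00-fold and 1.38-fold (adjusted p 0.00267 and 0.0159). RPIA passed without any 1 array, whereas RPE missed the threshold without vehicle replicate 1 (0.128) or vehicle replicate 2 (0.122). PGD and RPIA, neighbours in the pentose phosphate pathway, lay on opposite sides of 0.

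Among 11 other NRF2 targets 5 rose and 0 fell. The haem-degrading enzyme gene HMOX1 read 9.72 and 9.32 with LY101-4B, against 6.83 and 7.03 with vehicle, a rise of 2.59 log2 units (limma adjusted p 0.000773). TRIM16, a ubiquitin ligase gene, rose 3.78-fold, at 9.36 and 9.21 with LY101-4B against 7.42 and 7.31 in vehicle (adjusted p 0.000597), though it has a close copy that its probes may also read. ABHD4, a lipase gene, rose 3.53-fold (adjusted p 0.00158), at 8.88 ± 0.28 with LY101-4B against 7.07 ± 0.09 log2 units in vehicle (SD, n = 2 each). BLVRB, a biliverdin reductase gene, rose 1.57-fold (adjusted p 0.0161), and missed the threshold without vehicle replicate 2 (0.100) or LY101-4B replicate 2 (0.0520).

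**Figure D5:**
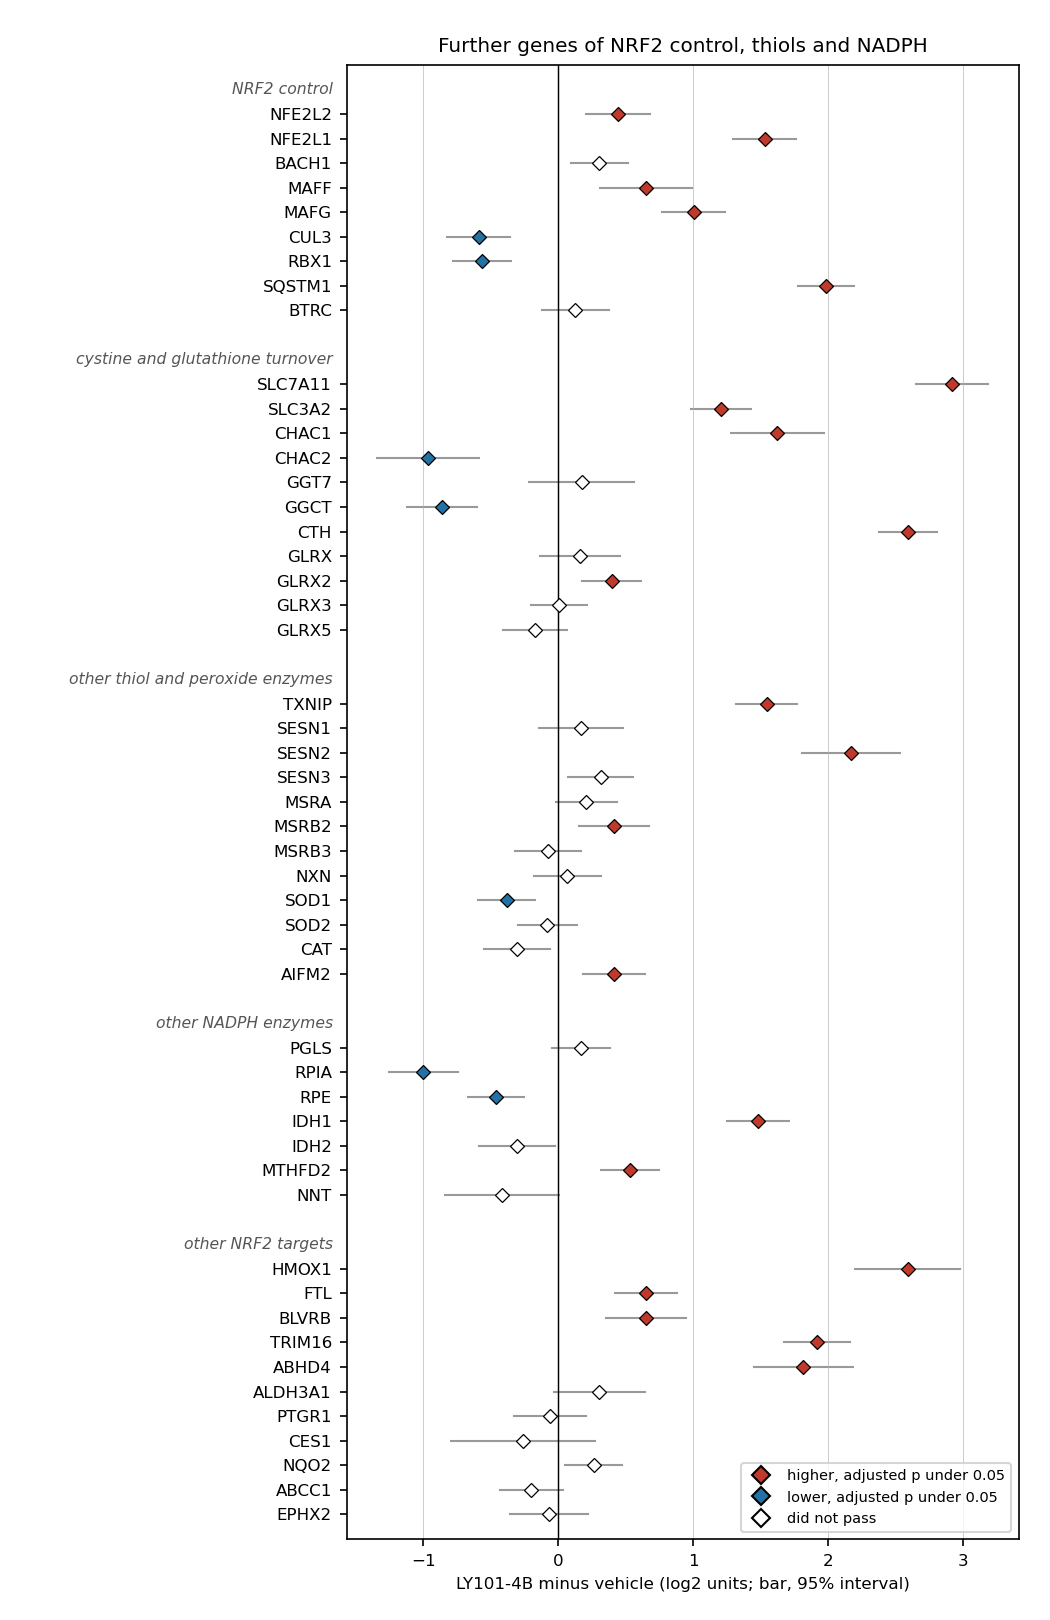
Differences between LY101-4B and vehicle (log2 units; bars, unadjusted 95% intervals of the limma fit, 2 arrays a group) for the 50 further pathway genes by role; red and blue diamonds passed the adjusted threshold, white ones did not. SLC7A11 (2.92), CTH (2.59) and HMOX1 (2.59) lie farthest right, and RPIA, CHAC2 (-0.96) and GGCT (-0.86) farthest left.

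As to the arrays themselves, the 2 arrays of a group correlated at r = 0.994 for LY101-4B and 0.997 for vehicle across the tested probe sets, and the column medians lay between 5.88 and 5.97. Of 6 marker genes for the carcinoma line, KRT8, KRT18, KRT19 and VIM read between 9.06 and 13.00, whereas EPCAM (3.77 to 4.12) and CDH1 (4.44 to 4.63) were dim on all 4 arrays. KRT8 and KRT18 fell, by 0.84 and 0.57 log2 units. None of the 12 measured markers of leukocytes, fibroblasts, endothelium and normal pancreas passed the test. That test compares LY101-4B with vehicle and does not show whether a marker is present. Brightest among the 12 were CD68 (7.93 to 8.21) and COL1A1 (6.88 to 7.02).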

How the data were processed

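Total RNA of 4 MiaPaCa2 cultures (2 with LY101-4B, 2 with vehicle) was hybridised to Human Gene 1.0 ST arrays. Per the labels' protocols the RNA was labelled with a FlashTag Biotin HSR kit, a type usually sold for small RNA, and it is uncertain whether that entry applies to these arrays. The deposited table holds log2 values for 33297 probe sets, made by RMA per the submitters' processing notes; the sources used here do not give its version, filters or genome build. Probe sets were named from the platform annotation: 19460 had 1 symbol, 1754 several and 12083 none. The 21214 with a symbol were fitted with limma 3.58.1 in R 4.3.3 (treatment as the only term, lmFit and eBayes, 2 residual and 3.75 prior degrees of freedom), with 2-sided p-values adjusted by Benjamini-Hochberg at 0.05. The brightest single-symbol probe set stood for each gene. Array number limits the precision. Members, branches and the second list were chosen with earlier results of these data known, so counts over lists are descriptions and carry no p. Named were every measured member, NFE2L2, and from each group of the second list up to 4 called genes with the largest change; others are marked. Promoter sequences are RefSeq's (GRCh38.p14). All columns were mapped to samples (0 left over). Alternatives covered scaling, dim or unannotated probe sets, the prior, the mean of a gene's probe sets, single arrays left out and the replicate number as a block.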

Additional observations from a re-analysis of the deposited data

How the results depend on the processing

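All 19 called members kept their direction in each alternative that included them, and 7 of them passed in each. Under all rows of the table tested, 9 members were higher and 0 lower, and over all probe sets the counts were 1162 and 1271. PRDX3, GSTM1, ABCC4, GPX8, PGD, NQO1, EPHX1, MGST1, ABCC3 and OSGIN1 were lost there (adjusted p 0.0506 to 0.124). Of the further genes named, NFE2L2, MAFF, MSRB2, SOD1, AIFM2, RPE and BLVRB were lost too. With the brighter 50% of probe sets 13 members were higher and 6 lower, beside 2151 and 2816 of the probe sets in that fit. With an intensity trend 19 members were higher and 6 lower, beside 2366 and 2869 of all probe sets. Counts of higher and of lower calls thus depended on these choices, for members and for probe sets at large. With 1 array left out, members called higher numbered 7 to 13 and lower 0 to 3, further pathway genes 13 to 19 and 3 to 8, and all probe sets 755 to 1899 and 811 to 2467. Over all probe sets, most calls were lost without a vehicle array (755 and 855 without replicate 1, 874 and 811 without replicate 2); the cause was not tested. The replicate block, with 1 residual degree of freedom, gave 16 members higher and 3 lower (2024 and 2312 probe sets): OSGIN1 was lost (adjusted p 0.0548) and AKR1C2 gained (0.0427). Same-numbered arrays deviated together only weakly (r = 0.116 across probe sets), and the labels give no shared batch. GSS, TXN, TXN2, PRDX1, GPX1, TKT and AKR1C2 passed in at least 1 alternative. Directions turned for 7 members that did not pass: GPX4 (-0.0050 with median centring), PRDX4 (0.075) and GSTP1 (0.087) under cyclic loess, and, with 1 array left out, GPX2 (-0.055 to 0.30), GPX3 (-0.0084 to 0.24), GSTM2 (-0.21 to 0.15) and AKR1B10 (-0.12 to 0.074); the cause was not tested. Median centring moved the median difference by -0.05 log2 units. Without detection calls, dim signals have no known distance to background.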
